A study of Arabidopsis thaliana with 53 samples.

Results

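The genes described here are 41 nuclear genes of the photosynthetic machinery in Arabidopsis thaliana, taken from the 27501 genes of a leaf count table. They were listed by name, with earlier results of these data known: LHCA1 to LHCA4 (4 genes of the photosystem I antenna), LHCB1 to LHCB6 (14 genes of the photosystem II antenna), 12 genes of the photosystem I subunits PSAD to PSAO and 11 genes of the photosystem II subunits PSBO to PSBY and PSBTn. The paper had already named several photosystem I and II subunits among the genes that changed in virescent plants. All 41 were found in the table and all passed the filter on low counts in every fit. The study germinated seeds on medium with 160 µM etoposide, a drug that traps topoisomerase II on cut DNA, or with the solvent DMSO, and followed their selfed offspring. Single-plant leaf libraries came from the etoposide-treated lines: virescent (6 plants with the phenotype and 4 relatives without it), BR-like dwarf (6 and 4), short-internode dwarf (6 and 4) and variegated (10 green plants without variegated progeny, 3 green plants with it, and 1 white plant). A further 9 plants descended from DMSO-treated seed. All grew at 22 °C with 16 h of light. By the labels the etoposide plants were M3, the offspring of the M2 offspring of the treated plants, and the DMSO plants were M2, while the study's methods give the DMSO plants as M3 too. By the library names each line goes back to 1 treated plant. In the 3 lines with relatives, all relatives share 1 M2 parent that is not a parent of the phenotypic plants (which have 2), so family and phenotype cannot be told apart.

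Photosystem II and photosystem I are the pigment-protein complexes of the thylakoid membrane that carry electrons from water to ferredoxin. Their reaction centre proteins are largely encoded in the chloroplast, whereas most of the peripheral subunits and all of the chlorophyll a/b-binding antenna proteins are encoded in the nucleus and imported. The antenna proteins collect light: LHCB1, LHCB2 and LHCB3 form the LHCII trimers, LHCB4, LHCB5 and LHCB6 (CP29, CP26 and CP24) link these trimers to the photosystem II core, and the LHCA proteins form a belt on photosystem I. Transcript levels of many of these genes are known to follow light, the circadian clock and signals from the plastid. Virescent leaves are pale when young and green later.

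Upstream sequences are shown for the 4 genes that passed the strict test in virescent plants (LHCB6, LHCB3, LHCB2.2 and LHCB4.2), for the paralogs LHCB4.1 and LHCB4.3, for LHCB1.4 and for PSBS, because their levels moved differently. They were read from RefSeq TAIR10.1 and end at the base before the annotated gene start, and each runs 5′ to 3′ for up to 250 bases or to the nearest other annotated gene. Capitals mark matches, on either strand, to the G-box (CACGTG), the I-box (GATAAG), the motif with letters CCAATC, the evening element (AAAATATCT) and a CCA1-binding sequence (AAAAATCT).
LHCB6 (chr1:5447881-5448059, minus strand): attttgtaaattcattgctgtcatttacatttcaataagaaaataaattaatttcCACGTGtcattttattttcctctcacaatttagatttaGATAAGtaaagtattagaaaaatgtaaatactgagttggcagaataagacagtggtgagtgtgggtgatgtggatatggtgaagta
LHCB3 (chr5:22038053-22038164, plus strand): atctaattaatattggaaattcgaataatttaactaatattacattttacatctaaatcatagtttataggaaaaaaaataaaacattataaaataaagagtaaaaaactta
LHCB2.2 (chr2:1800473-1800722, minus strand): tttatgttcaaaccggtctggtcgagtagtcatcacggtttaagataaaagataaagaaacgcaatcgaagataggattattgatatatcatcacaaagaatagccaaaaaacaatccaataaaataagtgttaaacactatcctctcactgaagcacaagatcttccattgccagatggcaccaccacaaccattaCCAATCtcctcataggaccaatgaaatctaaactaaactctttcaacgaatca
LHCB4.1 (chr5:208616-208865, plus strand): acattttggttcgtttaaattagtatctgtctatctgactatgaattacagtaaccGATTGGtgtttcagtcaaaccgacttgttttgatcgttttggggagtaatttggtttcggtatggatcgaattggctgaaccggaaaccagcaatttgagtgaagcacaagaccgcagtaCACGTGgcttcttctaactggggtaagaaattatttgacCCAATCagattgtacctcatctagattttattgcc
LHCB4.2 (chr3:2717367-2717556, plus strand): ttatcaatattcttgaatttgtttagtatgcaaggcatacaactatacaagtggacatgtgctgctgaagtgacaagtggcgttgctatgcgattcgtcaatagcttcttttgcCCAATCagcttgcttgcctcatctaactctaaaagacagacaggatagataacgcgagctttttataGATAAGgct
LHCB4.3 (chr2:16745378-16745627, plus strand): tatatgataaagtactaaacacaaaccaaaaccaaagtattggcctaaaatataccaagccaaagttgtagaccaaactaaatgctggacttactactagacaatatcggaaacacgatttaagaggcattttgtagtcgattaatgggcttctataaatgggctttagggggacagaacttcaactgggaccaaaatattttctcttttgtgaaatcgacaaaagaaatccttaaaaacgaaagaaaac
LHCB1.4 (chr2:14524357-14524606, plus strand): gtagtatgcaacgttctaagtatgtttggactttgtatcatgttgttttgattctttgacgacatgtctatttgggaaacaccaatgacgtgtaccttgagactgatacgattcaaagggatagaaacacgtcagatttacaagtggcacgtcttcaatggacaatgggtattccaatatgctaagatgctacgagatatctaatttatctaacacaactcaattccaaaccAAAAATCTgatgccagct
PSBS (chr1:16869971-16870220, plus strand): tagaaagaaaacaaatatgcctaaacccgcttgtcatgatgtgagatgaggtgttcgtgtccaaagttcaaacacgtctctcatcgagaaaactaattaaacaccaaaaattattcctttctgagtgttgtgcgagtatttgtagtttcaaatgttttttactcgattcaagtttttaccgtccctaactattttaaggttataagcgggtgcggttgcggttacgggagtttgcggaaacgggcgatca
The stretches of LHCB3, LHCB4.3 and PSBS hold none of these motifs.

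Over full windows of 250 bases, overlaps with neighbouring genes included, CCAATC was found on either strand upstream of 11 of the 41 members (26.8%) and upstream of 10.2% of 27443 nuclear protein-coding genes. The matches were uneven among the complexes: 3 of 4 LHCA genes, 7 of 14 LHCB genes, 0 of 12 photosystem I subunits and 1 of 11 photosystem II subunits held it. The G-box was present in 9 members (22.0%, against 6.49% of all genes), and the I-box also in 9 (22.0%, against 12.3%). AAAAATCT was present in 5 (12.2%, against 6.69%), and the evening element in 0 (against 2.36%). Of the LHCB4 genes, LHCB4.1 holds CCAATC in both directions and a G-box, LHCB4.2 holds CCAATC and an I-box, and LHCB4.3 holds none of these motifs. These matches describe letters in a window, not sites in use.

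The libraries held 29739361 to 116654254 counts (median 47326147). The leaf label was checked with 6 leaf markers (RBCS1A, CA1, ATML1, MYB60, FMA and SUC2), all above 0 in all 53 libraries, and 7 markers of other organs (AP1, LFY, AP3, PI, AG, AMS and CASP1), whose summed level was at most 2.62 CPM (counts scaled to a common library size) in the green plants and 22.9 CPM in the white plant. Following the study, which removed outlier libraries without naming them, the tests left out DMSO replicate 2 in every fit, short-internode dwarf relatives 1 and 2, and virescent relative 4. A fit of the deposited mean counts to the libraries gave these weights near 0, so the study appears not to have used them. Larger changes with them included are given in the text. By the same fit DMSO replicate 6 had a weight near 0 in the short-internode dwarf table, but the tests kept it. A supplementary table of the study lists the plant labelled virescent replicate 1 as a relative, and its label was kept. CPM values used TMM factors over all 53 libraries. Levels of members with near-identical copies are uncertain, since reads could be divided either way: LHCB1.1 to LHCB1.5 shared 23.5% to 32.1% of their 31-base words with other transcripts, LHCB2.1 and LHCB2.2 31.8% and 39.4%, LHCA2 15.1%, and the other members under 1%. The plants are separate samples of a group but include siblings, so the p-values measure the spread between these plants and not between lines.

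The 41 genes together took 1.81% to 20.2% of the counts of a library. The share was 13.8%, 15.5% and 20.2% (lowest, median and highest) in the 6 virescent plants, 11.1%, 12.9% and 14.6% in the 6 BR-like dwarf plants, and 10.3%, 11.8% and 14.3% in the 6 short-internode dwarf plants. It was 4.18%, 5.86% and 8.83% in the 9 DMSO plants, and 1.81% in the white plant. Every virescent plant was thus above every DMSO plant, and the white plant was below all others. The group mean was highest in virescent plants for 39 of the 41 members. The exceptions were LHCB4.3, highest in the BR-like dwarf relatives, and PSBO2, highest in short-internode dwarf plants. It was lowest in the white plant for 39 members, and for LHCB1.1 and LHCA4 in the green plants of the variegated line with variegated progeny.

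**Figure D1:**
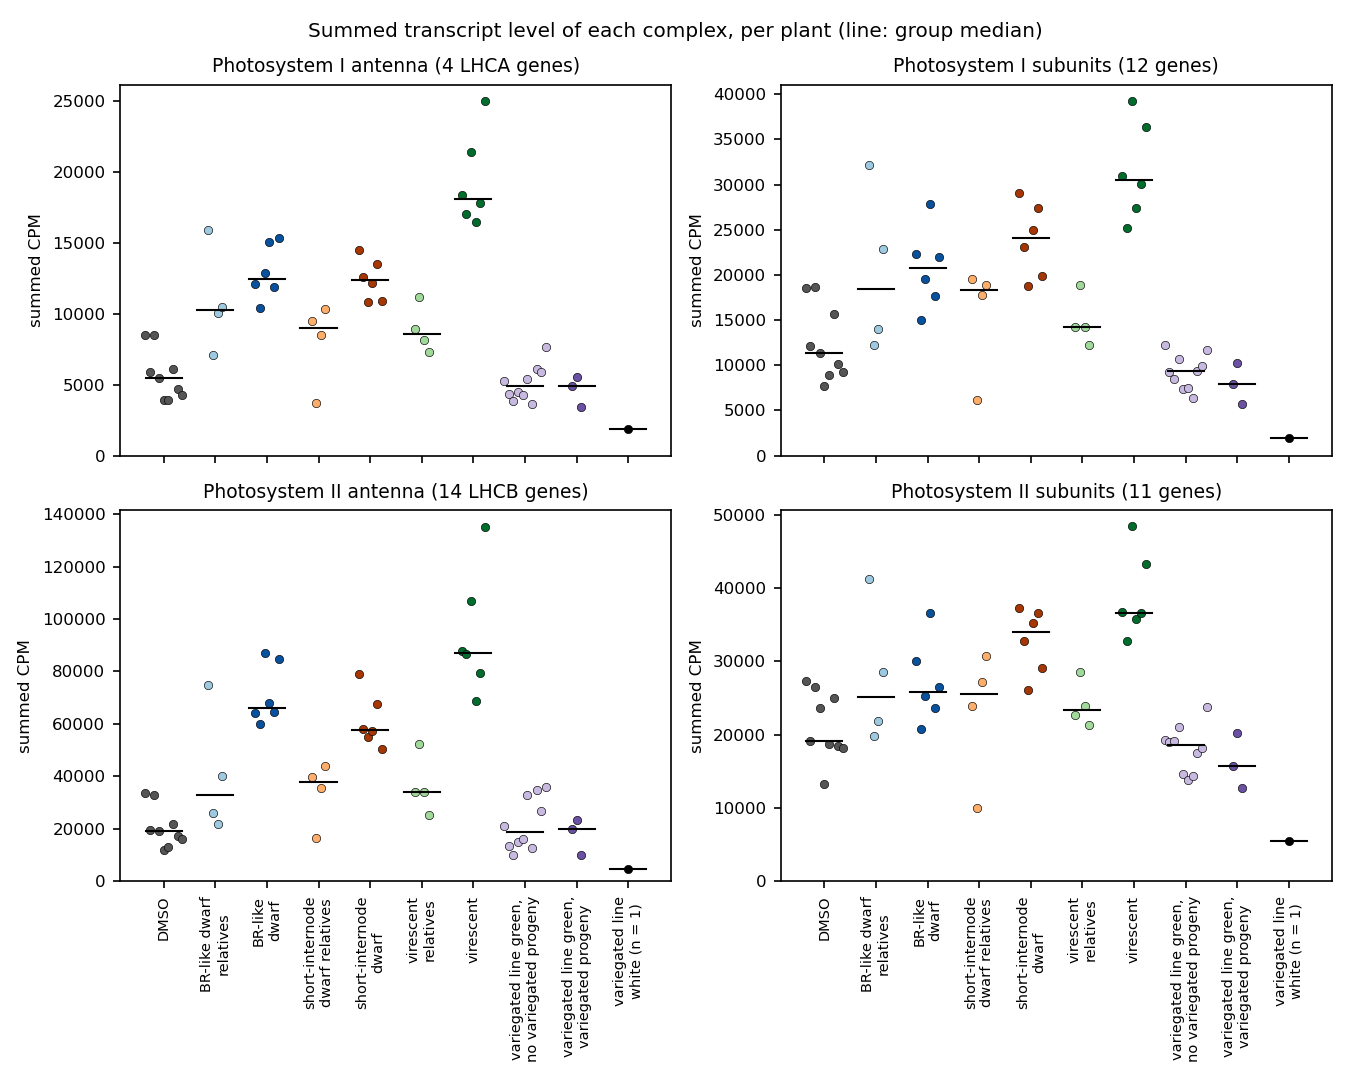
Summed level in CPM of the 4 LHCA genes, the 12 photosystem I subunits, the 14 LHCB genes and the 11 photosystem II subunits in each of the 53 plants (points), by group, with the group median as a line. The virescent median is the highest in all 4 panels, and the LHCB panel spans the widest range, from 4485 CPM in the white plant to 135084 CPM in a virescent plant.

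The members differed widely in level. Per kilobase of the longest annotated transcript, the mean level in DMSO plants was highest for LHCB1.3 (8672 CPM per kb), PSBR (6269) and PSBO1 (2930.0), and lowest for LHCB2.3 (11.9), LHCB4.3 (38.7), LHCB2.2 (40.4) and LHCB1.1 (43.1). LHCB1.3 alone gave on average 21.4% of the counts of the 41 genes, and PSBR and LHCB1.5 gave 7.19% and 7.08%. In virescent plants the level per kilobase of LHCB1.3 was 34540.0, that of LHCB1.5 18140.0 and that of PSBR 9801, so the order of LHCB1.5 and PSBR was the reverse of that in DMSO plants, where LHCB1.5 was at 2659.

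Virescent plants were compared with relatives of the same line to ask what goes with the phenotype. In this line young plants are pale and later turn green, and the libraries came from mature leaves, so the values are not those of pale young leaves. All 41 members had a higher fitted level in the 6 virescent plants than in the 3 relatives, and the median log2 fold change over all 41 was 0.99 (all tested genes: -0.01). At an adjusted p below 0.05, 31 members rose and 0 fell, where of the 19317 genes tested 8.25% rose and 8.84% fell. Under a strict rule (adjusted p below 0.01, and a change of more than 1 on the log2 scale) LHCB6, LHCB3, LHCB2.2 and LHCB4.2 rose (all genes: 1.03% higher and 1.92% lower). DESeq2 called 20 members under the strict rule and 37 under the other. With virescent relative 4 included, 21 members passed the strict rule and 37 the other. Over all genes the strict rule called 569 in the main fit, 1268 by DESeq2 and 1047 with that relative. Values of the groups did not overlap for 36 members, all higher in virescent plants, where 14.1% of all genes did not overlap in that direction. In whole leaves, more cells of a type and more RNA per cell cannot be told apart. The 6 leaf markers together were at 11092 to 25570.1 CPM in virescent plants and at 9393 to 14795 CPM in the 4 relatives, the guard cell marker MYB60 rose (log2 fold change 0.89, adjusted p = 0.0141) and the 5 others did not pass. Their part in the result was not tested.

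**Figure D2:**
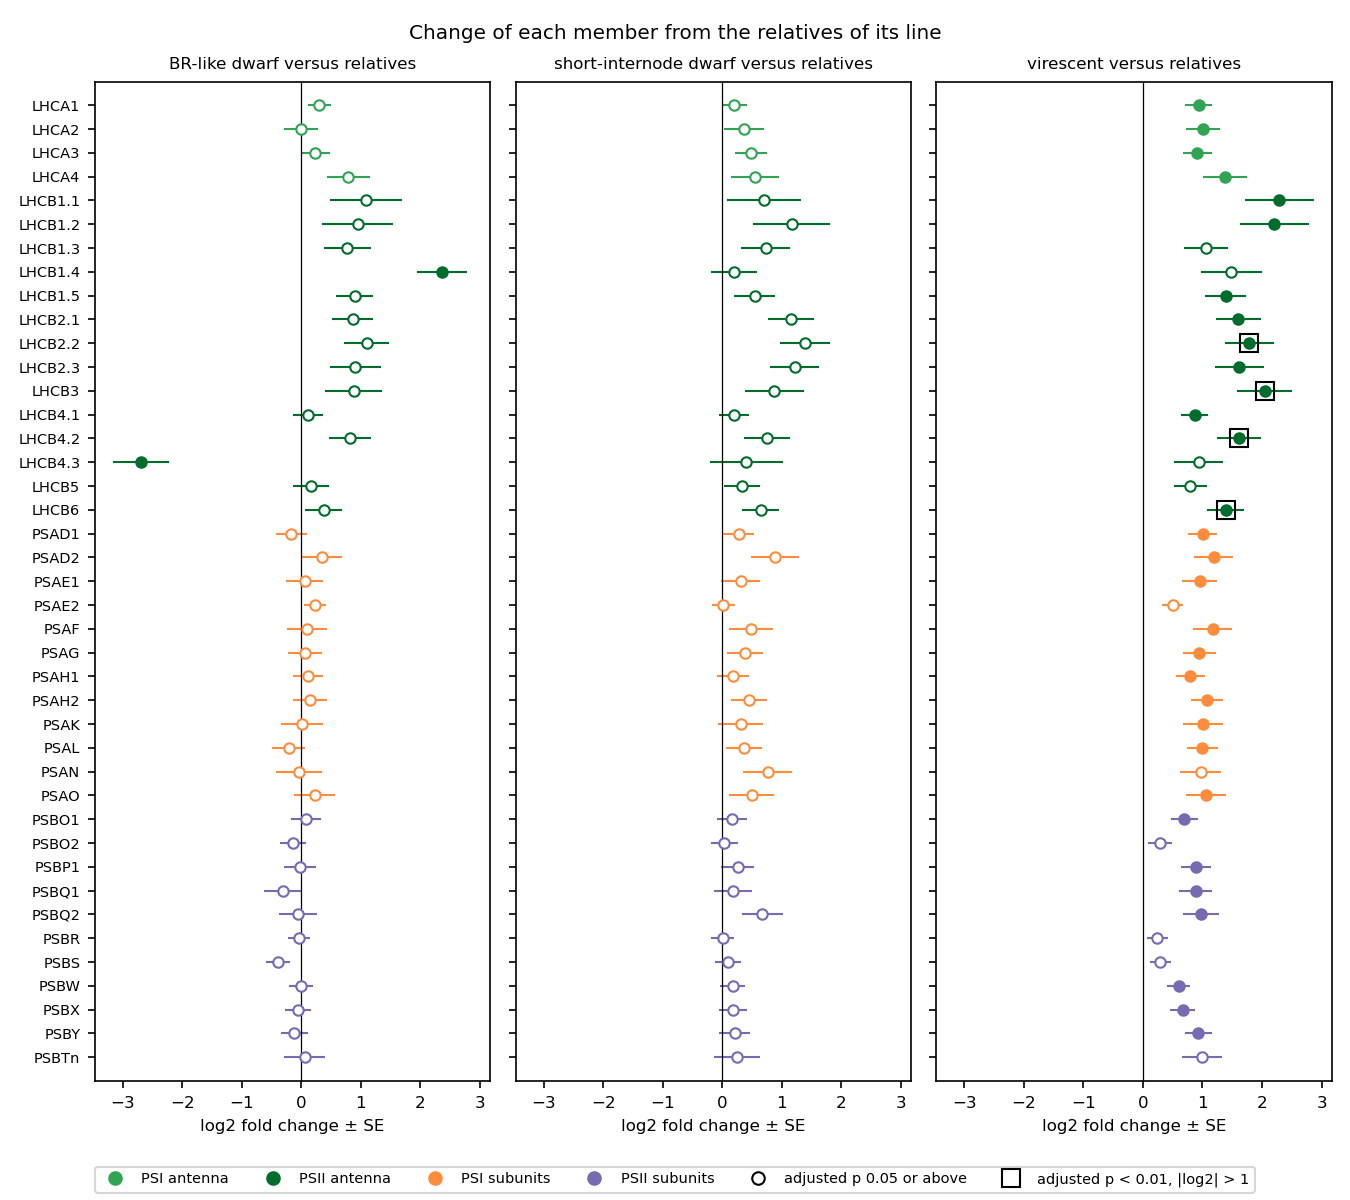
Log2 fold change of each of the 41 members (points, with bars of 1 standard error) between the phenotypic plants and the relatives of the virescent, BR-like dwarf and short-internode dwarf lines, coloured by complex; filled points have an adjusted p below 0.05 and squares mark the strict rule. In the virescent panel all points lie right of 0 and most LHCB genes lie further right than the photosystem II subunits, and in the BR-like dwarf panel LHCB1.4 and LHCB4.3 stand on opposite sides at 2.36 and -2.70.

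The photosystem II antenna had the largest median change. Of its 14 genes, 10 passed the adjusted p of 0.05 in virescent plants, and the median log2 fold change was 1.54, against 0.97 for the photosystem I antenna, 1.00 for the photosystem I subunits and 0.69 for the photosystem II subunits. LHCB6 (AT1G15820, chromosome 1, 5446462 to 5447880, TAIR10.1) encodes CP24, which joins the M trimer of LHCII to the core. It was at 2122, 2807 and 4076 CPM (lowest, median and highest) in virescent plants and at 1104, 1365, 954 and 775 CPM in relatives 1 to 4. All virescent plants lay above all 4 relatives, and the log2 fold change was 1.39 ± 0.31 (SE), adjusted p = 0.00685. LHCB3 (AT5G54270, chromosome 5, 22038165 to 22039568), a subunit of the same M trimer, was at 1969.8, 2273 and 3817 CPM against 569.8, 810.4, 421 and 310.0 CPM. Again the groups did not overlap, with a log2 fold change of 2.04 ± 0.47 (SE), adjusted p = 0.00852.

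LHCB2.2 (AT2G05070, chromosome 2, 1799234 to 1800472), a subunit of the LHCII trimers that move between the photosystems, was at 281, 429 and 815 CPM in virescent plants and at 144, 145, 102 and 91.3 CPM in the relatives. The lowest virescent plant was above the highest relative, and the log2 fold change was 1.79 ± 0.41 (SE), adjusted p = 0.00864. LHCB4.2 (AT3G08940, chromosome 3, 2717557 to 2718923), a form of CP29, was at 1053, 1530.1 and 2348 CPM against 473, 567, 468 and 362 CPM, with a log2 fold change of 1.61 ± 0.37 (SE), adjusted p = 0.00914. These 4 genes were higher in virescent plants under every alternative tried, and their log2 fold changes ranged from 1.25 (LHCB6) to 2.41 (LHCB3). At an adjusted p of 0.05 LHCB4.2 was lost without relative 1 (0.0519) and with family 13B_46 alone (0.0543).

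LHCB1.1 (AT1G29920, chromosome 1, 10474656 to 10475969), a gene of the main LHCII trimer protein, had the largest change of its complex. It was at 402, 577 and 1489.7 CPM in virescent plants and at 172, 167, 106 and 88.6 CPM in the relatives, a log2 fold change of 2.29 ± 0.58 (SE), adjusted p = 0.0142. The groups did not overlap. LHCB1.2 rose by 2.21 ± 0.57 (SE), adjusted p = 0.0164. LHCB1.3, the gene with the highest level, had a log2 fold change of 1.06 ± 0.37 (SE), adjusted p = 0.0566, and LHCB1.4 one of 1.48 ± 0.51 (SE), adjusted p = 0.0528. LHCB5, the CP26 protein, had the smallest fold change of the complex. It was at 4245, 4967 and 6257 CPM in virescent plants against 2679, 3685, 2415 and 1917 CPM, with a log2 fold change of 0.80 ± 0.27 (SE), adjusted p = 0.0532. LHCB2.3, the member with the lowest mean level, was at 56.4, 79.0 and 141 CPM against 28.9, 35.3, 20.1 and 28.04 CPM and rose by 1.62 ± 0.41 (SE), adjusted p = 0.0142. The paralog LHCB4.1 rose by 0.87 ± 0.23 (SE), adjusted p = 0.0167, and LHCB4.3 was at 0.94 ± 0.42 (SE), adjusted p = 0.128.

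All 4 genes of the photosystem I antenna rose in virescent plants. LHCA4 (AT3G47470, chromosome 3, 17493343 to 17495033) pairs with LHCA1, carries red-shifted chlorophylls and changed most. It was at 3101, 3613 and 5570.0 CPM in virescent plants and at 1484, 1831, 1131 and 1005 CPM in the relatives, a log2 fold change of 1.38 ± 0.37 (SE), adjusted p = 0.0185. LHCA3, the partner of LHCA2, changed least, at 4317, 4859 and 6572 CPM against 2445, 3224, 2384 and 2065 CPM, with 0.92 ± 0.24 (SE), adjusted p = 0.0174. For both genes the groups did not overlap.

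Of the 12 photosystem I subunits, 10 rose and PSAE2 and PSAN did not pass. PSAD2 (AT1G03130, chromosome 1, 753307 to 754262), which with PSAD1 encodes the subunit that docks ferredoxin, had the largest change and the lowest mean level of this set. It was at 637, 731 and 947 CPM in virescent plants and at 328, 380.0, 308 and 245 CPM in the relatives, with a log2 fold change of 1.19 ± 0.33 (SE), adjusted p = 0.0223. PSAE2, the second gene of a stromal subunit, had the smallest, at 1097, 1279.8 and 1580.1 CPM against 812, 1059.6, 858 and 704 CPM and 0.50 ± 0.18 (SE), adjusted p = 0.0625. The other genes lay between, among them PSAF, the docking site of plastocyanin, at 1.17 ± 0.32, and PSAL, PSAO and PSAH2, which form the face of photosystem I that binds mobile LHCII, at 1.00 ± 0.26, 1.06 ± 0.33 and 1.07 ± 0.27 (log2 fold changes ± SE).

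Of the 11 photosystem II subunits, 7 rose: PSBO1, PSBP1, PSBQ1 and PSBQ2 of the oxygen-evolving complex and the small membrane subunits PSBW, PSBX and PSBY. PSBTn, a small lumenal subunit, had the largest fold change of the set and just missed the threshold, at 1750.0, 2257 and 3324 CPM in virescent plants against 995, 1528, 1012 and 835 CPM and 0.99 ± 0.33 (SE), adjusted p = 0.0504. PSBY, the member of the set with the lowest mean level, was at 1359, 1529 and 2067 CPM against 709, 930.4, 951 and 786 CPM and rose by 0.93 ± 0.22 (SE), adjusted p = 0.0108. PSBR (AT1G79040, chromosome 1, 29735952 to 29737009), which helps to hold the oxygen-evolving proteins, had the smallest fold change, at 7001, 7376 and 8745 CPM against 6152, 7235, 6009 and 5738 CPM and 0.24 ± 0.18 (SE), adjusted p = 0.351. Its groups overlapped. Of the 2 genes of the manganese-stabilizing protein, PSBO1 rose by 0.69 ± 0.22 (SE), adjusted p = 0.0438, and PSBO2 was at 0.29 ± 0.20 (SE), adjusted p = 0.324. PSBS (AT1G44575, chromosome 1, 16870221 to 16873427), the sensor of lumen acidity that switches on the dissipation of excess light, was singled out after its values were seen. It was at 939, 1261 and 1533 CPM against 903, 1105, 1051 and 946 CPM, with 0.29 ± 0.18 (SE), adjusted p = 0.259.

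**Figure D3:**
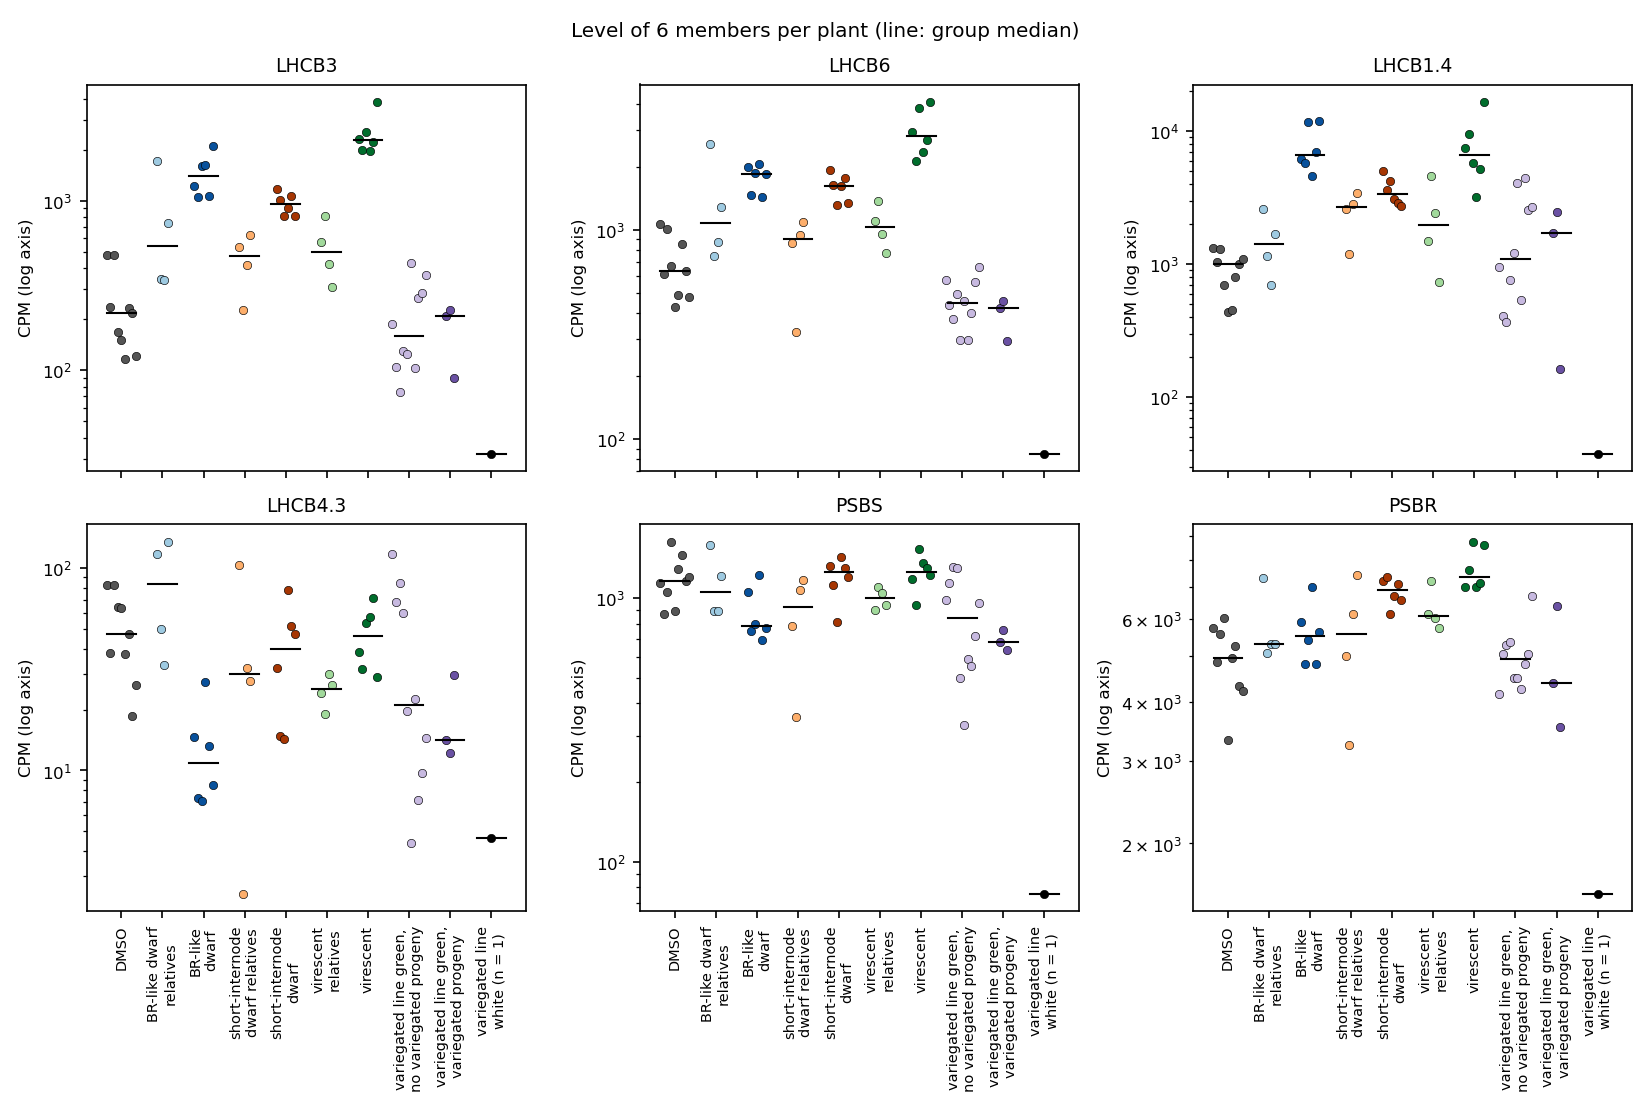
Level in CPM (log axis) of LHCB3, LHCB6, LHCB1.4, LHCB4.3, PSBS and PSBR in each of the 53 plants (points), by group, with the group median as a line. LHCB3 and LHCB6 are highest in virescent plants, LHCB4.3 is lowest among the dwarf groups in BR-like dwarf plants (median 10.8 CPM), and the PSBS medians of the groups other than the white plant lie between 679.9 and 1261 CPM.

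The rise was present in both M2 families of virescent plants, each set against the same 3 relatives of family 13B_18. With only the 3 plants of family 13B_25, 41 members had a positive log2 fold change with a median of 1.02, and with only the 3 plants of 13B_46 the median was 0.99. With fewer plants 9 and 7 members passed the adjusted p of 0.05 (all genes: 1303 and 1004). Without the plant labelled virescent replicate 1 the median was 1.01, and 22 members passed. Without virescent relatives 1, 2 and 3 in turn, 4, 19 and 6 members passed. Under the strict rule 0 passed without any one of these relatives or of virescent replicates 1, 3 and 6, and 2, 3 and 1 passed without virescent replicates 2, 4 and 5.

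The virescent plants and their relatives were also set against the 8 DMSO plants, which come from seed given the solvent alone. The same DMSO plants serve as controls in every such comparison. In each of them etoposide descent, line and, by the labels, generation cannot be told apart. In virescent plants 38 members rose and 0 fell at an adjusted p below 0.05 (all genes: 8.22% higher and 10.7% lower), and 31 rose under the strict rule (all genes: 1.03% higher and 1.7% lower). The median log2 fold change over all 41 was 1.46. Of the cell type markers, the guard cell genes MYB60 (log2 fold change 0.73, adjusted p = 0.00675) and FMA (0.45, adjusted p = 0.0147) rose as well, and the 6 leaf markers together were at 9359 to 19529 CPM in the 9 DMSO plants. Their part was not tested. The members that did not pass were LHCB4.3 (-0.16 ± 0.31 SE, adjusted p = 0.73), PSBO2 (0.37 ± 0.15 SE, adjusted p = 0.0937) and PSBS (0.03 ± 0.13 SE, adjusted p = 0.897). The relatives without the phenotype were higher than the DMSO plants as well: 37 members had a positive log2 fold change with a median of 0.46, and 6 antenna genes rose (all genes: 1.81% higher and 1.1% lower), namely LHCA1, LHCA3, LHCA4, LHCB1.4, LHCB1.5 and LHCB2.2. LHCB1.4 was the furthest of them at 1.68 ± 0.42 (SE), adjusted p = 0.0414. Without virescent relative 1 or 2, 0 members passed, 3 passed without relative 3 or DMSO replicate 4, 6 or 7, and 4 without DMSO replicate 9.

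In BR-like dwarf plants the photosystem II antenna was again the complex whose genes lay furthest from the relatives, but few members passed. Of the 41 members 27 had a higher fitted level than in the 4 relatives, and the median log2 fold change over all 41 was 0.11 (all genes -0.02). At an adjusted p below 0.05, LHCB1.4 rose and LHCB4.3 fell, where of all genes 1.13% rose and 0.84% fell. Under the strict rule 0 members passed (all genes: 0.0461% higher and 0.041% lower). An unadjusted p below 0.05 was found for 8 members (all genes: 3433 of 19515). DESeq2 called 4 and 2 under the 2 rules (all genes: 1123 and 311). The median log2 fold change was 0.87 over the LHCB genes, of which 13 of 14 were positive, 0.27 over the LHCA genes, 0.08 over the photosystem I subunits and -0.06 over the photosystem II subunits, of which 2 of 11 were positive.

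LHCB1.4 (AT2G34430, chromosome 2, 14524607 to 14525918), named for passing this test, was at 4633, 6609 and 11869 CPM (lowest, median and highest) in BR-like dwarf plants and at 2595, 1147, 703 and 1684 CPM in relatives 1 to 4. The lowest dwarf plant was above the highest relative, and the log2 fold change was 2.36 ± 0.42 (SE), adjusted p = 0.0132. Its neighbour on chromosome 2, LHCB1.5, was at 9497, 11141 and 15257 CPM against 9429, 4515, 4748 and 7109 CPM; these groups did not overlap either, and the log2 fold change was 0.90 ± 0.31 (SE), adjusted p = 0.137. LHCB4.3 (AT2G40100, chromosome 2, 16745628 to 16747424), a CP29 form known to rise in strong light, was at 7.08, 10.8 and 27.3 CPM in dwarf plants against 118, 49.8, 33.3 and 135 CPM. All dwarf plants were below all relatives, with a log2 fold change of -2.70 ± 0.47 (SE), adjusted p = 0.0113. LHCB4.1 and LHCB4.2 had log2 fold changes of 0.11 ± 0.25 (SE), adjusted p = 0.879, and 0.82 ± 0.36 (SE), adjusted p = 0.241. Groups did not overlap for 2 members that were higher (1.79% of all genes) and for 1 that was lower (2.02%). The paper reports a large inversion in BR-like dwarf plants that plants of the line without the phenotype lacked. It describes this inversion as enriched for differentially expressed genes. By the order of gene identifiers, LHCB1.4 and LHCB1.5 lie between the genes named at or near its ends, and LHCB4.3 lies outside. The part of the inversion in the values of LHCB1.4 and LHCB1.5 was not tested.

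The BR-like dwarf relatives were uneven. Relative 1 had a summed level of all members of 164192 CPM, above every dwarf plant (106269 to 148452 CPM), and relatives 2, 3 and 4 were at 65064, 67647 and 102031 CPM. Without relative 1, 7 members passed the adjusted p of 0.05 and the median log2 fold change was 0.45; without relative 4, 0 passed, with LHCB1.4 at an adjusted p of 0.0504 and LHCB4.3 at 0.0504. With only the dwarf plants of family 1A_14 the median was -0.04, and with those of 1A_20 it was 0.26.

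Against DMSO plants, BR-like dwarf plants had 20 members higher and 1 lower at an adjusted p below 0.05 (all genes: 7.26% higher and 7.03% lower), and 16 higher and 1 lower under the strict rule (all genes: 1.64% higher and 1.03% lower). By complex, 12 of 14 LHCB genes, 4 of 4 LHCA genes, 4 of 12 photosystem I subunits and 0 of 11 photosystem II subunits rose. The largest change was that of LHCB1.4, at 437, 1013 and 1333 CPM in the 9 DMSO plants, with a log2 fold change of 3.14 ± 0.33 (SE), adjusted p = 4.43e-05. The member that fell was LHCB4.3, at 18.6, 47.3 and 82.7 CPM in DMSO plants, with -2.02 ± 0.42 (SE), adjusted p = 0.00434. The 4 relatives had a similar median log2 fold change from DMSO plants, 0.78 beside 0.79, but with their spread 0 members passed by edgeR (all genes: 0.00512% higher and 0.00512% lower). Of the members 28 had an unadjusted p below 0.05 (all genes: 1573 of 19515), and DESeq2 called 6 (all genes: 106). Among cell type markers, the floral gene AP3 rose in BR-like dwarf plants (log2 fold change 3.39, adjusted p = 0.0117), where the 7 markers of other organs together were at 0.506 to 2.62 CPM, against 0 to 1.47 CPM in DMSO plants. Its part was not tested. Without relative 1 the median of the relatives was 0.41.

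In short-internode dwarf plants all 41 members had a higher fitted level than in the 2 relatives kept. Their median log2 fold change was 0.37, and 0 passed by edgeR (all genes: 0.0416% higher and 0.078% lower). Of the members, 4 had an unadjusted p below 0.05 (all genes: 1750 of 19243), and DESeq2 called 1 (all genes: 216). The LHCB genes had a median of 0.72, the LHCA genes 0.43, the photosystem I subunits 0.38 and the photosystem II subunits 0.18. LHCB2.2 was the furthest, at 139, 178 and 206 CPM in dwarf plants and at 87.3, 30.8, 48.8 and 81.8 CPM in relatives 1 to 4, with a log2 fold change of 1.397 ± 0.42 (SE), adjusted p = 0.273. Groups did not overlap for 17 members (9.01% of all genes in that direction). With relatives 1 and 2 included 2 members passed (all genes: 1100) and the median was 0.65. Relative 2 was the lowest of the green plants outside the variegated line. It held 36178 CPM over all members, against 92688, 89102 and 103760.0 CPM in relatives 1, 3 and 4.

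Against DMSO plants, 36 members rose and 0 fell in short-internode dwarf plants at an adjusted p below 0.05 (all genes: 7.86% higher and 9.31% lower), and 18 rose under the strict rule (all genes: 0.785% higher and 0.78% lower). Leaving out 1 plant at a time, DMSO replicate 6 among them, gave 13 to 24 strict calls. With all libraries included, 9 of the 36 members lost the call at an adjusted p below 0.05 and 27 kept it. All 12 photosystem I subunits and all 4 LHCA genes rose, with 13 of 14 LHCB genes and 7 of 11 photosystem II subunits; the members that did not pass were LHCB4.3, PSBO2, PSBQ1, PSBS and PSBY. LHCB1.2 had the largest change: it was at 1707, 2602 and 4548 CPM in dwarf plants and at 186, 382 and 1157 CPM in DMSO plants, with a log2 fold change of 2.42 ± 0.40 (SE), adjusted p = 0.00224. The lowest dwarf plant was above the highest DMSO plant. Of the cell type markers ATML1, an epidermal gene, rose (log2 fold change 0.40, adjusted p = 0.0177), and its part was not tested. The relatives against DMSO plants had a median of 0.54, with 0 members called by edgeR (all genes: 0% higher and 0% lower). Of the members 15 had an unadjusted p below 0.05 (all genes: 3525 of 19243), and DESeq2 called 4 (all genes: 956). With relatives 1 and 2 included the median was 0.29.

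The green plants of the variegated line lay mostly below the DMSO plants. Of the 41 members, 37 had a lower fitted level in the 13 green plants than in the 8 DMSO plants, and the median log2 fold change over all 41 was -0.44. At an adjusted p below 0.05, 10 fell, where of all genes 7.68% rose and 7.45% fell. These were LHCB2.1, LHCB2.2, LHCB6, PSAD1, PSAF, PSAH2, PSAL, PSBP1, PSBS and PSBY. The 6 leaf markers together were at 4188, 9573 and 16026 CPM in the green plants and 9359, 14693 and 19529 CPM in the 9 DMSO plants, and RBCS1A, a gene of the small subunit of Rubisco, fell (log2 fold change -0.70, adjusted p = 0.0449). Their part was not tested. LHCB2.1 also passed the strict rule (all genes: 0.233% higher and 0.369% lower). It was at 20.7, 33.8 and 55.8 CPM in green plants and at 38.6, 68.0 and 157 CPM in the 9 DMSO plants, groups that overlapped, with a log2 fold change of -1.11 ± 0.23 (SE), adjusted p = 0.0054. PSBS fell by 0.69 ± 0.23 (SE, adjusted p = 0.047) on the log2 scale. The call of LHCB2.1 under the strict rule was lost without any one of the 3 plants with variegated progeny or DMSO replicates 6, 7 and 8. Of single plants left out, the third plant with variegated progeny gave 2 members, DMSO replicates 7 and 1 gave 3 and 4, the first plant with variegated progeny gave 5, the plants 5, 7, 8 and 9 without variegated progeny and DMSO replicates 3 and 4 gave 6 each, DMSO replicate 5 gave 14 and the others gave 7 to 10.

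Green plants that gave variegated progeny (3) were compared with green plants that did not (10). Fitted levels were lower for 40 of the 41 members, and the median log2 fold change over all 41 was -0.22. Without the third plant with variegated progeny this median was -0.014, and without the second it was -0.38. By edgeR 0 passed (all genes: 1.92% higher and 0.0101% lower). An unadjusted p below 0.05 was found for 1 member, LHCB2.3 (all genes: 1906 of 19762), and DESeq2 called 1 (all genes: 421). LHCB2.3 lay the other way: it was at 8.82, 91.7 and 6.82 CPM in the plants with variegated progeny and at 4.56, 10.8 and 16.3 CPM in the plants without, with a log2 fold change of 1.77 ± 0.51 (SE), adjusted p = 0.0902. All 3 plants with variegated progeny came from M2 family 5A_58. Within this family the summed level of all members was 48352, 59410.0 and 31857 CPM in them and 60987 and 79046 CPM in the 2 plants without variegated progeny, which is too few plants for a test.

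The white plant of the variegated line had no replicate, and no test was made. Of the 41 members 37 were below every green plant of the line, where 24.1% of all genes were, and 1 was above every green plant (23.3% of all genes). The level as a percentage of the median green plant had a median of 21.3% over the members, 17.3% over the photosystem I subunits, 19.3% over the LHCB genes, 27.9% over the photosystem II subunits and 35.8% over the LHCA genes. LHCB1.4 was the lowest in this measure, at 37.7 CPM against 164, 1223 and 4430.0 CPM (lowest, median and highest) in the 13 green plants, and PSBQ2 followed at 43.3 CPM against 645, 887 and 1183 CPM. PSBS was at 75.8 CPM against 329.8, 717 and 1309 CPM.

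The other 4 members lay above or within the range of the green plants. LHCB1.1 was at 100.4 CPM in the white plant, above the 9.91 to 85.1 CPM of the green plants, while its neighbours LHCB1.2 and LHCB1.3 were at 17.5% and 21.3% of the green median. LHCA4 was at 449 CPM (green median 428), LHCB4.1 at 1324 CPM (green median 1911) and LHCB4.3 at 4.64 CPM (green median 19.7), all inside the green range. LHCB1.1 shares 31.1% of its 31-base words with the other LHCB1 genes, so its level rests on how reads were divided among them. The floral markers AP1, AP3, PI and AMS were at 4.70, 4.33, 5.12 and 4.82 CPM in this library and at most 0.197 CPM each in the green plants of the line. The 6 leaf markers together were at 5016 CPM, within the 4188 to 16026 CPM of the green plants. The part of other tissue in these values was not tested.

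**Figure D4:**
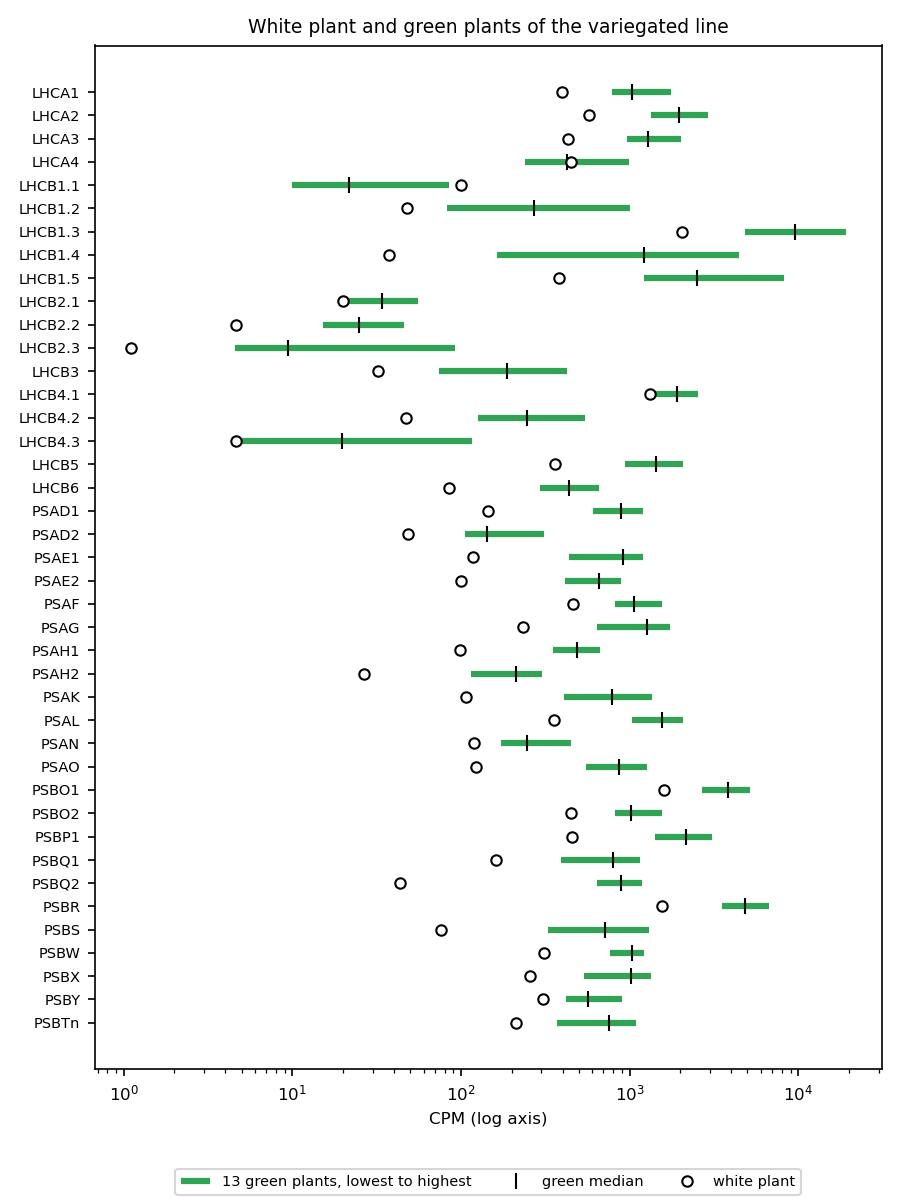
Level in CPM (log axis) of each of the 41 members in the white plant (open circles) and in the 13 green plants of the variegated line (bar from lowest to highest, tick at the median). The circle lies left of the bar for 37 members and right of it for LHCB1.1.

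The size of the change from the relatives was compared between lines by interaction contrasts in a fit of the 6 groups of the 3 lines and the DMSO plants. The change in virescent plants exceeded that in BR-like dwarf plants for 6 members at an adjusted p below 0.05 (all genes: 7.15% higher and 8.69% lower), with a median difference of 0.81 on the log2 scale over the 41 members. These were LHCB4.3 (3.61 ± 0.72 SE, adjusted p = 0.00132), PSAL (1.19 ± 0.34 SE, adjusted p = 0.0158), PSBQ1, PSAD1, PSBY and LHCA2. With all libraries included 2 members passed (all genes: 2245). Of the 3 alternatives run, LHCA2 and PSBQ1 lost the call in 2, and PSAD1 and PSBY in 1. The contrast holds BR-like dwarf relative 1, whose summed level lay above every dwarf plant, and it was not refitted without that plant. Of the cell type markers MYB60 (difference 1.52, adjusted p = 0.00502) and FMA (0.75, adjusted p = 0.0334) passed in the same direction, and their part was not tested. The change in virescent plants against that in short-internode dwarf plants had a median difference of 0.62 with 0 members called (all genes: 2.33% higher and 2.83% lower). The 2 dwarf lines had a median difference of -0.23 with 0 called (all genes: 0.389% higher and 0.288% lower). For both differences 2 members had an unadjusted p below 0.05, beside 4412 and 3039 of 19815 genes. LHCB1.4 was the member with the lowest value in the contrast of virescent with BR-like dwarf changes, at -0.90 ± 0.58 (SE), adjusted p = 0.296. DESeq2 was not run for these contrasts.

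The ratio of antenna to subunit transcripts varied among the groups, and it was not tested. The summed CPM of the LHCB genes divided by that of the photosystem II subunits was 1.93, 2.296 and 3.12 (lowest, median and highest) in virescent plants and 1.51, 1.84, 1.43 and 1.18 in their relatives. It was 1.86, 2.81 and 3.45 in BR-like dwarf plants and 1.82, 1.302, 0.993 and 1.41 in their relatives, and 1.63, 1.81 and 2.12 in short-internode dwarf plants and 1.67, 1.62, 1.32 and 1.42 in theirs. The phenotypic plants lay above all relatives in the virescent and BR-like dwarf lines and overlapped in the short-internode line, where the lowest dwarf plant was at 1.63. DMSO plants were at 0.693, 0.905 and 1.24, below every phenotypic plant of the 3 lines. The green plants of the variegated line spread from 0.531 to 2.38 with a median of 1.105, and the white plant was at 0.824. The same ratio for photosystem I, LHCA over subunits, differed less: its medians were 0.598 in virescent, 0.666 in BR-like dwarf, 0.523 in short-internode dwarf and 0.464 in DMSO plants, with 0.953 in the white plant.

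**Figure D5:**
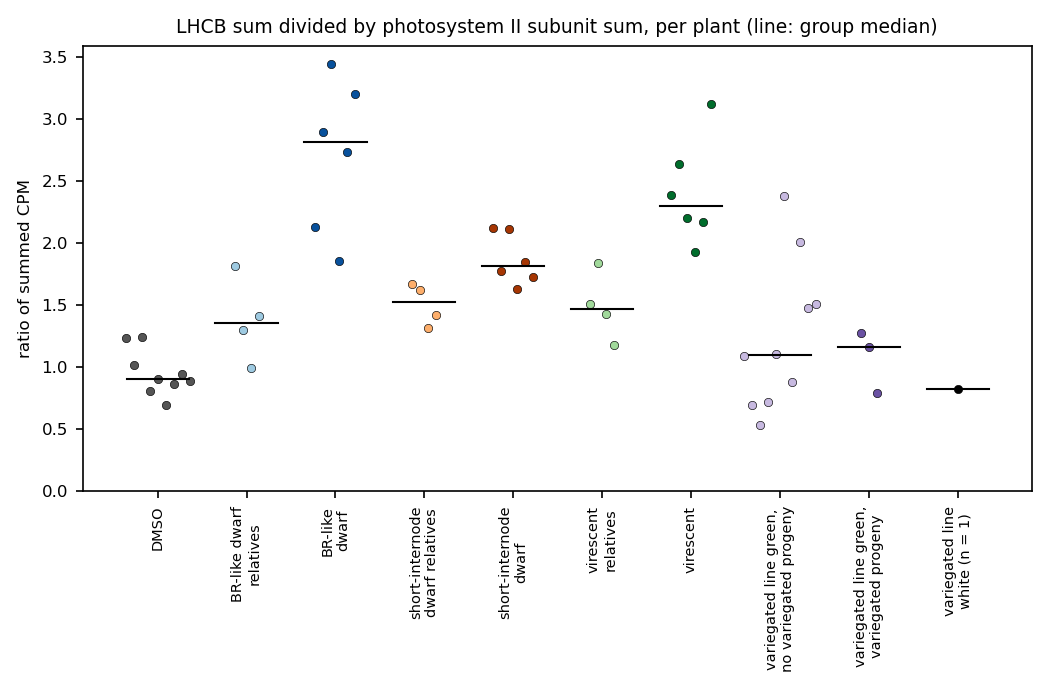
Ratio of the summed CPM of the 14 LHCB genes to that of the 11 photosystem II subunits in each of the 53 plants (points), by group, with the group median as a line. All 9 DMSO plants lie at or below 1.24 and all virescent plants at or above 1.93.

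Over the 53 plants the members moved together. The Pearson correlation of each member's log2(CPM + 1) with the mean of the other 40 was above 0.9 for 30 members, given as a description since the plants share lines and the libraries share normalization. The lowest values were 0.26 for LHCB4.3, 0.63 for PSBS and 0.76 for PSBO2 (Spearman 0.19, 0.50 and 0.71), and the highest 0.99 for LHCB6 and 0.99 for PSAO. Paralogs differed: LHCB4.1 and LHCB4.2 were at 0.96 and 0.95, and PSBO1 was at 0.97.

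The rest of the electron transport chain was also examined. Of 13 such genes (PETC, plastocyanin PETE1 and PETE2, ferredoxins, ferredoxin-NADP reductases, ATP synthase subunits and cyclic-flow factors) 0 passed the adjusted p of 0.05 against relatives in any of the 3 lines by edgeR (at an unadjusted p below 0.05 3 in virescent, 5 in BR-like dwarf and 0 in short-internode dwarf plants), and their median log2 fold changes were 0.14 (virescent), -0.37 (BR-like dwarf) and 0.09 (short-internode dwarf). Against DMSO plants 3 rose in virescent and 3 in short-internode dwarf plants, among them PETE1 in short-internode dwarf plants (1.05, adjusted p = 0.0014), 0 in BR-like dwarf plants, and 4 fell in the green plants of the variegated line. In the contrast of virescent with BR-like dwarf changes 3 of the 13 were higher at an adjusted p below 0.05, and 1 under the strict rule. Their median difference was 0.51 (all genes: 7.15% higher and 8.69% lower, with 310 higher under the strict rule). Of the rarely expressed paralogs LHCA5, LHCA6, LHCB7 and PSBP2, 0 passed against relatives in the 3 lines by edgeR (at an unadjusted p below 0.05 0 in virescent, 1 in BR-like dwarf and 0 in short-internode dwarf plants). LHCB7 fell against DMSO plants in BR-like dwarf (-0.60, adjusted p = 0.0458) and short-internode dwarf plants (-0.58, adjusted p = 0.0453), and LHCA6 in the variegated line (-0.91, adjusted p = 0.0472). Against relatives, an unadjusted p below 0.05 was found for 6388 of 19317 genes in virescent plants. It was found for 3433 of 19515 in BR-like dwarf and 1750 of 19243 in short-internode dwarf plants. The list counts at this level, here and below, stand beside these.

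Of 10 regulators of these genes, 2 passed in virescent plants against relatives: GLK1, an activator of antenna genes, rose (log2 fold change 0.48, adjusted p = 0.0423) and GNL, a GATA factor of greening, fell (-1.87, adjusted p = 0.0114). In the other lines 0 passed by edgeR (at an unadjusted p below 0.05 4 in virescent, 3 in BR-like dwarf and 2 in short-internode dwarf plants). Against DMSO plants PIF4 and PIF5, factors that act in darkness and shade, rose in virescent (2.64, adjusted p = 1.45e-06, and 1.29, adjusted p = 0.000772), BR-like dwarf (2.41, adjusted p = 5.6e-06, and 1.27, adjusted p = 0.000321) and short-internode dwarf plants (1.71, adjusted p = 4.38e-05, and 1.15, adjusted p = 0.00294), and PIF4 also in the relatives of the virescent (1.93, adjusted p = 0.000862) and BR-like dwarf lines (1.56, adjusted p = 0.0204). PIF5 rose in the relatives of the virescent line (1.25, adjusted p = 0.0159). GLK1 rose in virescent plants (0.71, adjusted p = 0.000662). The regulators that fell against DMSO plants were GNL in virescent plants (-2.20, adjusted p = 0.00133), GNL (-1.53, adjusted p = 0.0249) and the related GATA factor GNC (-0.62, adjusted p = 0.0308) in BR-like dwarf plants, and GNC (-0.61, adjusted p = 0.0302) and HY5, a light-signalling activator (-1.28, adjusted p = 0.042), in short-internode dwarf plants. In the contrast of virescent with BR-like dwarf changes GLK1 was higher (0.72, adjusted p = 0.0361) and PIF1, another factor of the PIF family, lower (-1.20, adjusted p = 0.00951).

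Antenna genes are known to cycle over the day, and clock genes were read as a sign of the time of sampling. Of 10 clock genes, 0 passed by edgeR against relatives in any of the 3 lines (at an unadjusted p below 0.05 1 in virescent, 0 in BR-like dwarf and 4 in short-internode dwarf plants). Against DMSO plants 5 rose and 2 fell in virescent plants, 3 and 1 in BR-like dwarf plants, 2 and 1 in short-internode dwarf plants and 0 and 3 in the green plants of the variegated line, and PRR7, GI and LUX rose in virescent relatives. GI, which peaks late in the day, rose in virescent plants (2.21, adjusted p = 0.000263) and fell in the variegated line (-1.10, adjusted p = 0.0488), and RVE8, a morning gene, fell in virescent plants (-2.32, adjusted p = 0.00165) and was at 0.21 in the variegated line. The clock genes had median log2 fold changes from DMSO plants of 1.05 in virescent, 0.54 in BR-like dwarf and 0.04 in short-internode dwarf plants. These medians were 0.72, 0.36 and -0.59 in the relatives of the same lines, and -0.15 in the variegated line. The part of the clock genes in these results was not tested. Of 6 senescence genes tested, 0 passed by edgeR against relatives (at an unadjusted p below 0.05 1 in virescent, 4 in BR-like dwarf and 1 in short-internode dwarf plants). Against DMSO plants SEN1 rose in BR-like dwarf (1.75, adjusted p = 0.0491) and short-internode dwarf plants (2.097, adjusted p = 0.0229) and in the variegated line (3.53, adjusted p = 0.0212), NYC1 rose in virescent plants (0.74, adjusted p = 0.00659) and SAG13 fell in BR-like dwarf plants (-4.40, adjusted p = 0.027).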

How the data were processed

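RNA of single-plant leaves was poly(A)-selected and sequenced from a strand-specific kit. The authors trimmed reads with Trim Galore and estimated transcript abundance with Salmon against Araport11 transcripts, taking decoys from Col-CEN v1.2 (tool versions: not given in the sources used here). The deposited table holds estimated counts per gene (9.27% of values not whole), which were rounded. Deposited comparison tables hold the authors' fold changes and p-values, which were not used, and a mean normalized count per gene, a signal used only to see which libraries the authors had kept. A non-negative fit of that mean to the libraries also gave DMSO replicate 6 a weight near 0 in the short-internode dwarf table. It was kept in the tests, and results without it are given with the alternatives.

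Members and lists were chosen with earlier results of these data known. edgeR 4.0.16 (R 4.3.3) with TMM factors and the quasi-likelihood test was fitted per line with its relatives and the DMSO plants, on genes that reached 10 normalized counts in 4 or more libraries, with Benjamini-Hochberg adjustment over all genes; DESeq2 1.42.0 was an alternative. Standard errors are the absolute log2 fold change of a refit without a prior count, divided by the root of the F statistic. The fold changes given used a prior count of 0.125. Scripts were tested on simulated data. Values of single plants (for groups over 5 plants, the lowest, median and highest) are given for members under the strict rule against relatives and, per complex, for the members with the largest and smallest change in virescent plants and the lowest mean level; LHCB1.2, LHCB1.4, LHCB1.5, LHCB2.1, LHCB4.3, PSBQ2 and PSBS were added after their values were seen. Gene names follow RefSeq; 2 list genes (PETM, A9) and a list of chloroplast genes had no name paired with their identifiers and were not used. Positions are TAIR10.1 and transcript lengths are of the longest RefSeq transcript; Python 3.11.15 was used for these. Replicate numbers were not taken as pairs.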

Additional observations from a re-analysis of the deposited data

Results flagged for a closer look

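In short-internode dwarf relative 2 the summed level of the 12 photosystem I subunits was 6166 CPM, far below the other 3 relatives at 19585, 17725 and 18901 CPM; the gap was over the 95% limit of Dixon's test for 4 samples. It was the only such case among 56 combinations of group and measure, where chance gives about 1 in 20. The same library was also the lowest relative for the LHCA genes (3698, 9469, 8533 and 10331 CPM in relatives 2, 1, 3 and 4), and the tests of this line did not use it.

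The change from the relatives was larger in virescent plants than in BR-like dwarf plants for 6 members by an interaction contrast in edgeR. BR-like dwarf relative 1, whose summed level of all members was above every dwarf plant, is part of this contrast. The contrast was not refitted without it. The difference of log2 fold changes was 3.61 for LHCB4.3 (adjusted p = 0.00132), 1.19 for PSAL (0.0158), 1.18 for PSBQ1 (0.0459), 1.16 for PSAD1 (0.0161), 1.03 for PSBY (0.0228) and 1.00 for LHCA2 (0.0425). For LHCB4.3 this is 0.94 in virescent plants and -2.70 in BR-like dwarf plants. Against DMSO plants LHCB4.3 was at -0.16 in virescent plants and at -1.10 in their relatives, so the 0.94 goes with low relatives. For the other members the BR-like dwarf plants lay between -0.31 and -0.01 and the virescent plants between 0.89 and 1.01.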

How the results depend on the processing

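No member called at an adjusted p below 0.05 changed its direction under the alternatives run. With DESeq2, BR-like dwarf plants against relatives had 4 members called (2 strict), their relatives against DMSO plants 6 (2 strict), short-internode dwarf plants against relatives 1, their relatives against DMSO plants 4 (2 strict), virescent plants against relatives 20 strict, their relatives against DMSO plants 11 (4 strict), and green plants with against without variegated progeny 1. Over all genes, in this order, DESeq2 called 1123 (311 strict), 106 (11 strict), 216, 956 (142 strict), 1268 strict, 1406 (186 strict) and 421. With all libraries included, short-internode dwarf plants against relatives had 2 (median log2 fold change 0.65), their relatives against DMSO plants 1 (median 0.29), virescent plants against relatives 21 strict, their relatives against DMSO plants 1 strict, the virescent against BR-like dwarf difference 2, and the median difference of the dwarf lines was -0.53. Over all genes, in this order, 1100, 861, 1047 strict, 71 strict and 2245 passed. Some calls at an adjusted p below 0.05 against DMSO plants were also lost with all libraries. These were 9 of 36 in short-internode dwarf plants, 1 of 6 in virescent relatives and 1 of 10 in the variegated line. Without the low-count filter 6 members of the variegated line fell against DMSO plants, where 2644 of all genes passed in either direction. TMM against RLE factors, library totals and removal of organelle genes moved no count of calls by more than 1.5 times. In the design with relatives and DMSO plants pooled and treatment as a covariate the phenotype term equals the contrast with relatives. With the plants of 1 family, BR-like dwarf family 1A_20 had 1 and virescent families 13B_25 and 13B_46 had 9 and 7 (0 strict in both), with fewer plants in the fit. Over all genes, in this order, 491, 1303 (150 strict) and 1004 (97 strict) passed.

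Replicate numbers shared by phenotypic plants and relatives did not mark pairs: correlations of deviations between same-numbered plants ran from -0.38 to 0.45 and were not above 0.1 for every pair of any line. With the replicate block, BR-like dwarf plants had 1 member called against relatives and 1 strict against DMSO plants, short-internode dwarf plants 19 (1 strict) against DMSO plants, virescent plants 2 strict against relatives and 11 strict against DMSO plants, virescent relatives 2 (median 0.22), the variegated line 18 (0 strict), and the difference of the dwarf lines 1. Over all genes, in this order, 12, 11 strict, 1316 (87 strict), 361 strict, 94 strict, 172, 3319 (1 strict) and 240 passed.

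Leaving out each plant in turn gave these ranges. Against relatives they were 0 to 7 members (0 to 2 strict, median -0.050 to 0.45, lowest without relative 2 and highest without relative 1) in BR-like dwarf, 0 (0 strict, median 0.28 to 0.42) in short-internode dwarf and 4 to 34 (0 to 3 strict, median 0.92 to 1.17) in virescent plants. Against DMSO plants they were 18 to 28 (15 to 18 strict, median 0.71 to 0.93), 34 to 38 (13 to 24 strict, median 0.91 to 1.08) and 38 (30 to 32 strict, median 1.37 to 1.59). For the relatives against DMSO plants they were 0 (median 0.41 to 0.96), 0 to 3 (median 0.46 to 0.65) and 0 to 8 (0 to 1 strict, median 0.33 to 0.58). For the variegated line they were 0 to 1 (median -0.38 to -0.014) with against without variegated progeny and 2 to 14 (0 to 1 strict, median -0.59 to -0.36) against DMSO plants. The 4 strict calls in virescent plants rest on 3 relatives, and leaving out any of these gave 0. Without DMSO replicate 6, 35 members rose in short-internode dwarf plants (13 strict). All 41 members passed the low-count filter in every fit, and whether depth limited a call was not tested. No leave-one-out fits or DESeq2 test were run for the differences between lines.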

Other observations

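The DMSO plants came from 3 lines whose levels differed in range, which was not tested. The summed level of the 41 members was 87992, 56430.0 and 86508 CPM in replicates 1 to 3 of line C13, 59346, 36752 and 44546 CPM in replicates 4 to 6 of line C23 and 68432, 50573 and 47843 CPM in replicates 7 to 9 of line C4_8. Replicates 1, 3 and 7 were the highest of the 9 plants, and their sums lie inside the range of the virescent relatives (65859 to 110897 CPM). PSBS, in contrast, was at 1145, 870.0 and 1055 CPM in C13, 1637, 897 and 1296 CPM in C23 and 1456, 1158 and 1202 CPM in C4_8.

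Among the green plants of the variegated line the LHCB1.4 level ranged from 164 to 4430.0 CPM. In family 5A_3 it was 1223, 4104, 541 and 4430.0 CPM in the 4 plants, and in family 5A_2 it was 962, 412, 366 and 767 CPM.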
